A study of Rattus norvegicus with 11 samples.

Results

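The “0” strain of rats, which was bred for the absence of audiogenic epilepsy (AE, seizures that loud sound provokes), was compared with W rats of the parent Wistar stock. Messenger RNA of the corpora quadrigemina was read in 4 “0” and 4 W rats, 8 of the 11 rats of the series, and all genes with a mean of at least 1 CPM (counts per 1000000 counts on genes, scaled with the TMM method) in these rats were kept, 13630 of 32883. The methods state that “0” rats descend from F2 hybrids of Wistar rats and the seizure-prone KM strain, with backcrosses to KM, so that both are among its ancestors. The labels give Wistar as the strain of all samples and name the genotypes as less prone to audiogenic epilepsy and wild type. All animals were 4-month-old males, none was AE-prone, and W rats that answered sound with a wild run had been taken out. The “0” rats had heard a loud bell 3 times at 3 months of age. W rats were tested with the bell 4 days before decapitation, when the “0” rats heard it again. Other rats of the “0” strain can still respond to sound. The strain, its testing history and its KM ancestry cannot be told apart in this design.

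The corpora quadrigemina are the roof of the midbrain. The inferior colliculi relay hearing and are the site where audiogenic seizures start, and the superior colliculi turn sensory signals into orienting and escape movements. Inferior and superior colliculi were pooled in each sample, together with whatever blood, vessels and ependyma the dissection carried along, so that the RNA of neurons, glia and other cells was read as 1 mixture. Between 10545964 and 13623132 reads per rat fell on genes, and 3 counts, the smallest amount taken as seen, stood for 0.189 to 0.321 CPM, which covers counting error only. The 10 most abundant genes held 7.95% of the counts in “0” 4 and 29.2% in “0” 3 against 13.9% to 19.0% in the other rats, and no difference between the strain means of this share was found (exact permutation test, two-sided p = 0.857). The same test found none in the counts on genes (exact permutation p = 0.943) or in the share of reads outside genes (exact permutation p = 0.971). Nothing in the labels states that the rats came from separate litters, and p-values measure only the spread between these 8 samples.

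Of the 13630 genes, 912 or 6.69% had an unadjusted p under 0.05 in the quasi-likelihood F-test (QLF test) of edgeR, the threshold for differentially expressed genes (DEGs) in the study. Of these DEGs, 445 (3.26%) were higher and 467 (3.43%) lower in “0” rats, where 681.5 genes would pass if no gene differed. The Benjamini-Hochberg adjusted p was under 0.05 for 15 genes (0.110%), 5 higher and 10 lower in “0” rats, and in each of them the values of the 4 “0” rats and the 4 W rats did not overlap. Over all genes tested, the strains did not overlap in 608 genes or 4.46% (2.28% with “0” above and 2.18% with “0” below W rats). Without W 1 or W 2 only 618 or 612 genes were DEGs, and the adjusted count fell to 1 without “0” 2, to 6 without “0” 3, to 5 without W 1 and to 9 without W 2. AABR07000733.1 passed in all 8 of these fits.

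**Figure D1:**
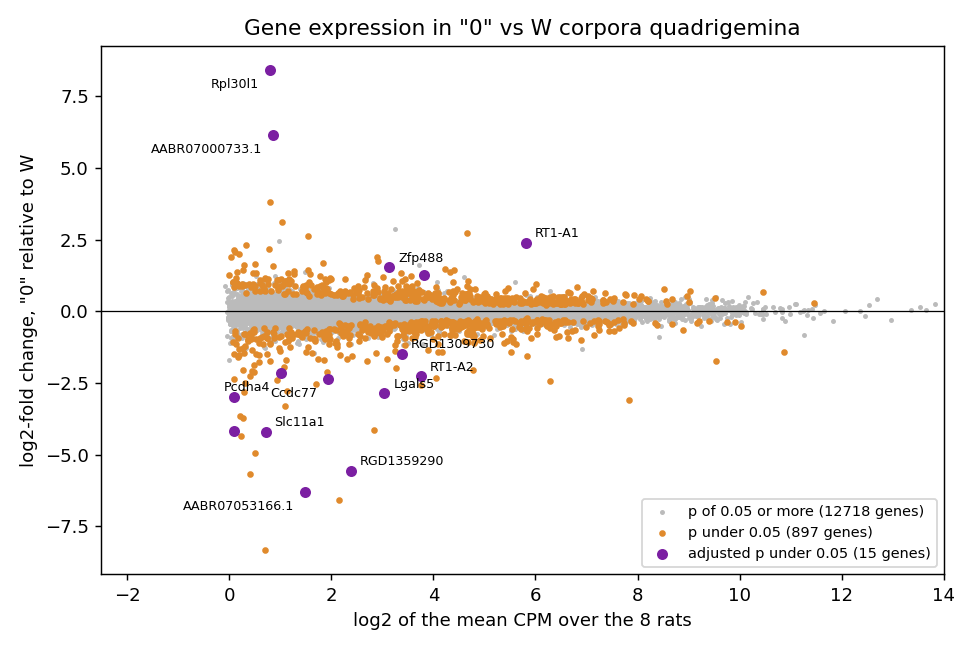
Log2-fold change of “0” relative to W rats (vertical axis) against the log2 of the mean CPM over the 8 rats (horizontal axis) for 13630 genes, with 1 point per gene. The 15 genes with an adjusted p under 0.05 (large points, the 12 with a symbol are named) lie on both sides of 0, and Rpl30l1, whose fold rests on W rats without a count, stands highest.

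The deposited counts name genes only by identifier, and symbols could be given to 1754 of the tested genes. These symbols come from the study's list of genes that differ between KM and W or between KM and “0” rats, comparisons that share the W or the “0” rats analysed here. Among genes with a symbol, 24.9% were therefore DEGs (12.8% higher and 12.1% lower in “0” rats), against 4.01% of the genes without a symbol. The strains did not overlap in 16.5% of the genes with a symbol (8.21% with “0” above and 8.27% below), and 0.684% of them had an adjusted p under 0.05. The counts of each gene group below are to be read against the first of these shares, and 476 DEGs remain without a name. Every group was written by hand and reduced to the genes with a symbol, and the direction of its members is not independent evidence, because the list was chosen on samples that include these.

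**Figure D2:**
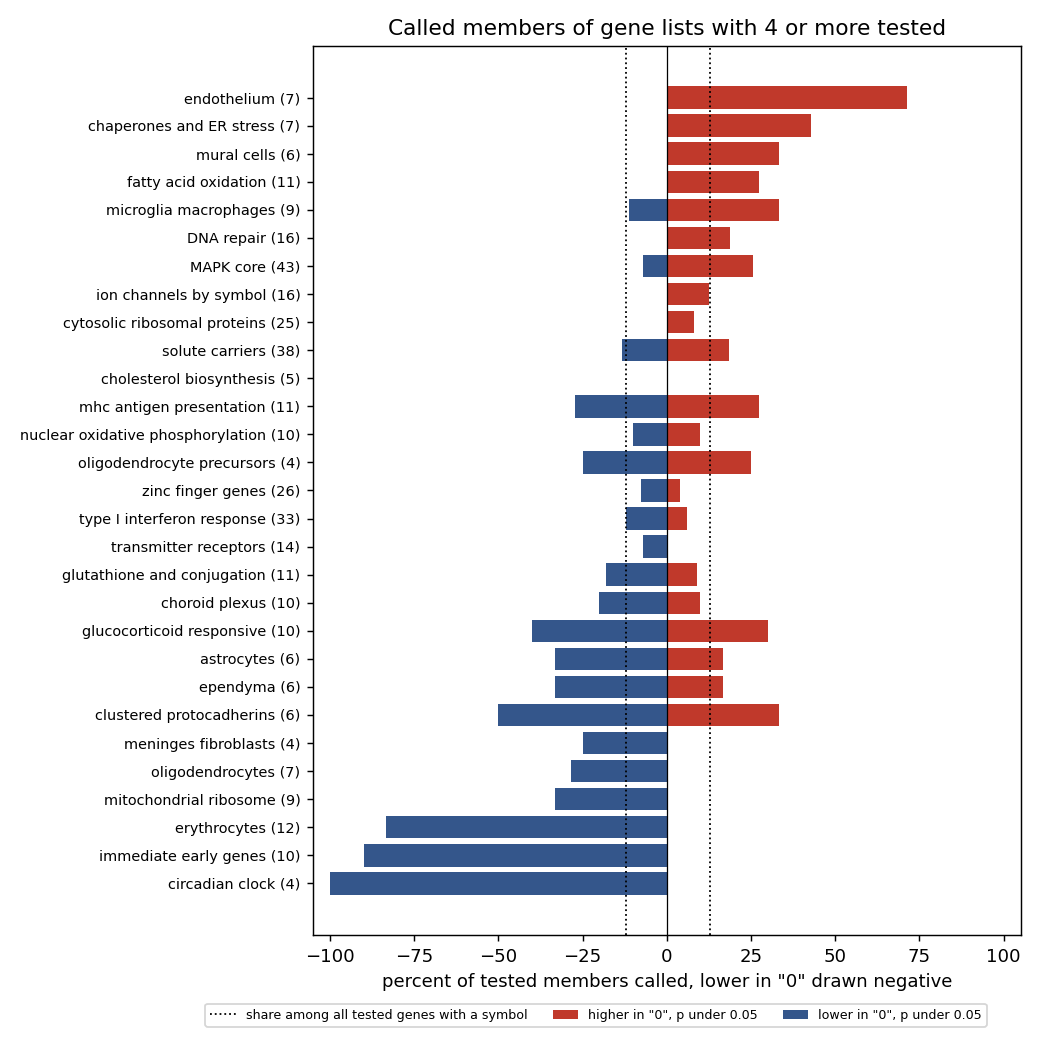
Percent of the tested members with an unadjusted p under 0.05, higher (right) or lower (left, negative) in “0” rats, for gene lists with at least 4 members tested, whose number stands in brackets. The dotted lines mark 12.8% (right) and 12.1% (left), the shares among all tested genes with a symbol, and of the lists drawn, the clock, immediate early and red blood cell lists reach farthest to the left.

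Class I molecules of the major histocompatibility complex (MHC, called RT1 in the rat) display peptides from inside the cell to T cells, and their genes vary between rat strains more than almost any others. In “0” rats the class I gene RT1-A1 was higher and its neighbour RT1-A2 lower than in W rats, and no gene lies between them in the RefSeq order of protein-coding genes. RT1-A1 was read at 81.8, 91.0, 102 and 103 CPM in “0” rats 1 to 4 and at 22.4, 10.2, 23.1 and 15.9 CPM in W rats 1 to 4. Its lowest “0” rat exceeded the highest W rat more than 3-fold (log2-fold change 2.40, standard error 0.24, adjusted p = 0.0117). RT1-A2 went the other way, with 4.97, 4.77, 5.68 and 3.34 CPM in “0” and 24.0, 22.4, 28.1 and 14.3 CPM in W rats (log2-fold change −2.25, standard error 0.24, adjusted p = 0.0118). Class I genes are near-identical copies, reads can be shared out between them in the counting, and the values of each copy are uncertain for that reason. The bases that precede the start sites of both genes are shown because they carry the opposite difference side by side, with capitals at the positions where the aligned genes differ (RefSeq, GRCr8, RT1-A1 at chr20:4907007-4907208, plus strand, and RT1-A2 at chr20:4872621-4872821, plus strand). The RT1-A1 stretch covers positions 202 to 1 before the start and the RT1-A2 stretch positions 250 to 50.
RT1-A1: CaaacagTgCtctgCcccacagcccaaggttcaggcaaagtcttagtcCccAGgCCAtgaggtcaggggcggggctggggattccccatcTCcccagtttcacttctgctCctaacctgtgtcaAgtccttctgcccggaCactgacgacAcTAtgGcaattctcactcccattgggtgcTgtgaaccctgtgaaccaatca
RT1-A2: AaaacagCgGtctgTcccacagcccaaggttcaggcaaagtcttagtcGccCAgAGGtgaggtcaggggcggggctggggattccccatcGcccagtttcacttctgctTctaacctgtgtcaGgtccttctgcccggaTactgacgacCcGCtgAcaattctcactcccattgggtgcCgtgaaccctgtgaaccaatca
Over 202 aligned positions the stretches were 90.1% identical, with 19 mismatched bases and 1 gap. Both hold GGGATTCCCC, the letters of an NF-κB site, and GTTTCACTTC, those of an interferon response element, each once. On either strand, 0.0807% of the 33469 RefSeq rat promoters hold the first and 0.120% the second in the 250 bases before the start. Both words were picked out of the RT1-A1 stretch by looser patterns of such sites, so its match was fixed in advance. The shares count only these exact letters and do not show that the sites are unusual. These matches are letters in a window and say nothing of binding, and the alleles that the rats carry were not examined.

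The MHC and antigen presentation list held 11 tested genes, of which 3 were higher, 3 lower and 5 not DEGs, against 24.9% of all genes with a symbol, with a median log2-fold change of 0.55 beside −0.05 over those genes. RT1-M3-1, a nonclassical class I gene of the family that presents formylated bacterial peptides, had 12.3, 12.3, 15.9 and 16.6 CPM in “0” and 8.5, 8.99, 9.12 and 7.21 CPM in W rats, without overlap (log2-fold change 0.75, standard error 0.17, adjusted p = 0.212). RT1-CE4 was lower with 7.76 to 12.5 CPM in “0” and 12.1 to 17.7 CPM in W rats (log2-fold change −0.67, standard error 0.19, adjusted p = 0.422), and the highest “0” rat overlapped the lowest W rat. Of the nonclassical T24 genes, RT1-T24-4 was lower (3.15 to 5.68 CPM in “0” and 6.08 to 11.1 CPM in W rats) and RT1-T24-1 higher (0.932 to 2.40 CPM in “0” and 0.647 to 1.10 CPM in W rats), with log2-fold changes of −0.92 and 0.91. RT1-Bb, RT1-CE5, RT1-T24-3, Tap1 and Tapbp were no DEGs, with log2-fold changes of −0.51 to 0.75. RT1-T24-1 was no DEG without “0” 3, “0” 4, W 1, W 2 or W 4 (log2-fold change 0.64 to 0.91).

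Several of the genes with an adjusted p under 0.05 were close to present in one strain and absent in the other. AABR07000733.1, a locus named only by its clone, gave 54, 34, 39 and 45 counts in “0” rats 1 to 4 and 1, 1, 0 and 0 counts in W rats. The counts summed over the rats of each strain and scaled stood in a ratio of 85.9 (exact 95% interval 23.4 to 715, adjusted p = 0.00390), and this interval covers counting error only, not the spread between rats. Rpl30l1, a gene similar to that of ribosomal protein L30, had 65, 26, 34 and 45 counts in “0” rats and none in any W rat, which makes it at least 56.6-fold higher in “0” rats when 3 counts over the 4 W rats are taken as the floor (adjusted p = 0.0122). Near-copies of ribosomal protein genes share reads, and Rpl30 itself was higher in “0” rats too (20.9 to 36.5 CPM in “0” and 7.69 to 20.5 CPM in W rats, log2-fold change 1.02, standard error 0.29, adjusted p = 0.404).

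In the opposite direction, AABR07053166.1 had 3, 0, 0 and 0 counts in “0” rats and 74, 104, 45 and 52 counts in W rats, a ratio of 91.8 (exact 95% interval 31.1 to 448 for counting error only, adjusted p = 0.0118). The 3 counts lie in “0” 1 alone, and without that rat the strain had none. RGD1359290, predicted to encode a protein with a ribosomal L22 domain, was read at 0.543, 0, 0.321 and 0 CPM in “0” and 11.8, 13.3, 6.34 and 9.43 CPM in W rats (log2-fold change −5.55, standard error 0.65, adjusted p = 0.0122, log2-fold change −6.73 without “0” 1). Slc11a1 encodes the metal transporter NRAMP1 of phagosomes, by which macrophages withhold metals from bacteria. It had 0.0776, 0.280, 0 and 0.252 CPM in “0” and 3.27, 2.95, 3.80 and 2.50 CPM in W rats (log2-fold change −4.19, standard error 0.48, adjusted p = 0.0122). The “0” rats had only 0 to 4 counts of Slc11a1 and 0 to 7 of RGD1359290 each, so the sizes of both folds are uncertain. In all of these genes every rat of one strain lay above every rat of the other, and whether the strains differ in the gene's sequence or in its transcription was not tested.

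**Figure D3:**
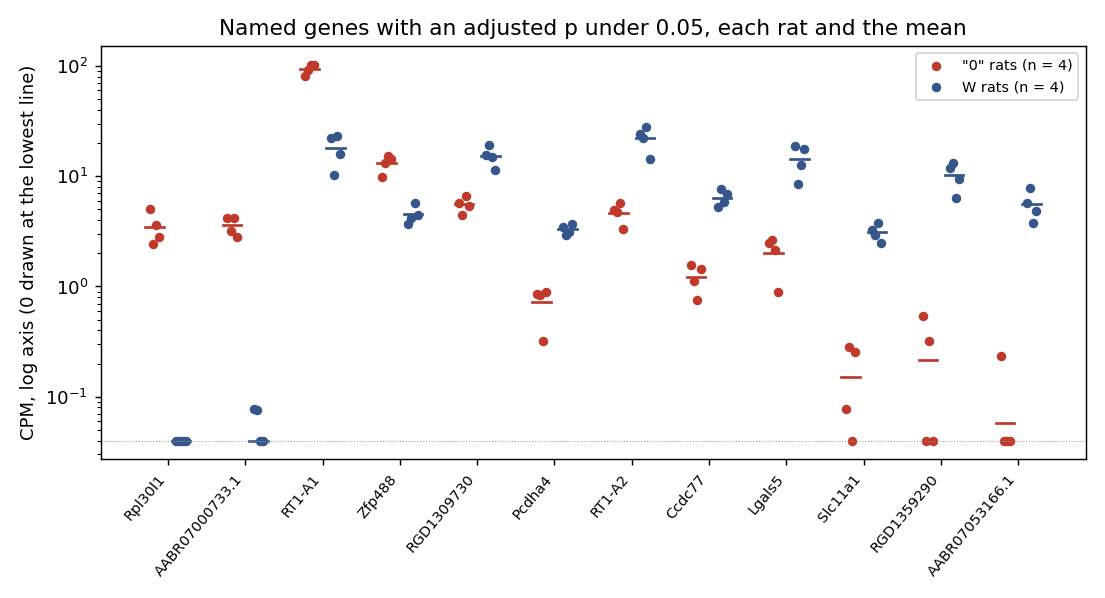
CPM of each rat (points, log axis) and strain means (bars, n = 4 each) for the 12 genes with a symbol and an adjusted p under 0.05, ordered from the most raised to the most lowered in “0” rats. A value of 0 is drawn on the dotted line, where the 4 W rats of Rpl30l1 and 3 “0” rats of AABR07053166.1 lie, and in no gene do the strains overlap.

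Most of the rest of this group was read in both strains. Zfp488, a zinc finger repressor that promotes the formation of oligodendrocytes, had 9.86, 13.2, 15.1 and 14.3 CPM in “0” and 3.66, 4.16, 5.75 and 4.44 CPM in W rats (log2-fold change 1.54, standard error 0.21, adjusted p = 0.0256). Ccdc77, which encodes a coiled-coil protein, was lower in “0” rats with 1.55, 1.12, 0.750 and 1.45 CPM against 5.22, 7.71, 5.83 and 6.84 CPM (log2-fold change −2.36, standard error 0.27, adjusted p = 0.0122). RGD1309730 was lower as well (4.49 to 6.64 CPM in “0” and 11.5 to 19.3 CPM in W rats, log2-fold change −1.47, standard error 0.20, adjusted p = 0.0274). Pcdha4, a clustered protocadherin through which neurons tell their own processes from those of others, is the symbol of 2 identifiers. ENSRNOG00000047174 had 0.854, 0.841, 0.321 and 0.883 CPM in “0” and 3.43, 2.95, 3.13 and 3.70 CPM in W rats (log2-fold change −2.14, standard error 0.31, adjusted p = 0.0375). ENSRNOG00000050378, whose exons could share reads with it, had 1.29 to 2.41 CPM in “0” and 2.57 to 4.81 CPM in W rats (log2-fold change −0.80, standard error 0.31, adjusted p = 0.642). Both were lower in “0” rats without overlap. Of the 3 genes without a symbol, ENSRNOG00000024799 was higher (16.7 to 24.3 CPM in “0” and 7.03 to 9.35 CPM in W rats) and ENSRNOG00000058238 (0 to 0.233 CPM in “0” and 1.40 to 2.37 CPM in W rats) and ENSRNOG00000013973 (0.126 to 0.374 CPM in “0” and 1.36 to 2.42 CPM in W rats) were lower in “0” rats. The log2-fold change of ENSRNOG00000058238 was −4.16, and −4.91 without “0” 1. Each “0” rat had only 0 to 3 counts of ENSRNOG00000058238 and 2 to 4 of ENSRNOG00000013973, so the sizes of both folds are uncertain. ENSRNOG00000050378 was no DEG without “0” 2, “0” 3 or W 4 (log2-fold change −0.73 to −0.55).

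Immediate early genes are switched on within minutes of neuronal firing, a stimulus or stress, without new protein synthesis, and most encode transcription factors that pass the signal on. Of 25 such genes listed, 10 had a symbol and were tested, and the others could not be identified. The tested members were lower in “0” rats, and nothing is known here of the rest. All 10 members tested had a negative log2-fold change, 9 were DEGs (12.1% of all genes with a symbol were lower), and the median was −0.94. Many promoters of such genes carry cyclic AMP response elements, whose core is TGACG and whose full palindrome is TGACGTCA. The 250 bases before the start are shown for 3 members that differ in the layout of these letters, with capitals marking TGACG or its reverse complement (RefSeq, GRCr8, Nr4a1 at chr7:134259888-134260137, plus strand, Dusp1 at chr10:17184603-17184852, plus strand, and Sik1 at chr20:9958647-9958896, minus strand).
Nr4a1: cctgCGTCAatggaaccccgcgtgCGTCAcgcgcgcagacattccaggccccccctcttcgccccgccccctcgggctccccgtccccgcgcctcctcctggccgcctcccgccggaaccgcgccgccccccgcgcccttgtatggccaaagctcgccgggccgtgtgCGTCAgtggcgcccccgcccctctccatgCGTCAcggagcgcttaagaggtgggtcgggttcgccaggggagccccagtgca
Dusp1: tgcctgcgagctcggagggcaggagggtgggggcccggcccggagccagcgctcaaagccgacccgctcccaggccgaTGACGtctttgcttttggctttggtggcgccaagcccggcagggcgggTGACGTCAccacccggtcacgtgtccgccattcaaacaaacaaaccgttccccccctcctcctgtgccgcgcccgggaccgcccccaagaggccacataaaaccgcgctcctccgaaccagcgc
Sik1: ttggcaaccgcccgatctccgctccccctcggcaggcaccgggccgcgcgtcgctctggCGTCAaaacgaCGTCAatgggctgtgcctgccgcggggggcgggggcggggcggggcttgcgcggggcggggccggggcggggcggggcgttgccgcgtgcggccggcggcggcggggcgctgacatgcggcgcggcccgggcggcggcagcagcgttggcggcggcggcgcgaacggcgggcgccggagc
Nr4a1 holds 4 matches, Sik1 2 and Dusp1 3, where 2 of the Dusp1 matches overlap in the full palindrome. Of the 6 members with an entry in the promoter table, 5 hold TGACG on either strand, beside 18.2% of all RefSeq rat promoters, and the full palindrome stands in 1.59% of those. A match is no sign of binding.

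Fos, a subunit of the AP-1 transcription factor and the usual marker of neuronal activation, was read at 9.01, 12, 10.8 and 11.2 CPM in “0” rats 1 to 4 and 18.3, 22.4, 18.8 and 25.2 CPM in W rats 1 to 4. No “0” rat reached the lowest W rat (log2-fold change −0.98, standard error 0.16, adjusted p = 0.0724). Nr4a1, an orphan nuclear receptor, had 12.3, 8.60, 6.96 and 11.2 CPM in “0” and 21.1, 41.1, 16.6 and 26.4 CPM in W rats (log2-fold change −1.42, standard error 0.29, adjusted p = 0.157). Dusp1, a phosphatase that switches MAP kinases off, had 19.9, 21.8, 19.0 and 20.4 CPM in “0” and 28.1, 40.1, 29.7 and 41.5 CPM in W rats (log2-fold change −0.78, standard error 0.16, adjusted p = 0.157), and the spread among W rats was several times that among “0” rats. Egr1 (34.4 to 52.9 CPM in “0” and 53.2 to 103 CPM in W rats, log2-fold change −0.94), Klf2 (6.21 to 8.95 CPM in “0” and 12 to 15.9 CPM in W rats, log2-fold change −0.93) and Klf4 (4.74 to 7.10 CPM in “0” and 9.20 to 10.5 CPM in W rats, log2-fold change −0.79), zinc finger transcription factors, did not overlap between the strains either.

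Of the other members, Nr4a3 was at 4.04, 3.55, 4.18 and 3.91 CPM in “0” and 12, 9.07, 4.06 and 17.7 CPM in W rats (log2-fold change −1.45), so that W 3 lay within the “0” range. Nr4a2, which dopamine neurons also need for their identity, showed the same with 10.4, 7.71, 2.37 and 19.4 CPM in W against 1.70 to 4.11 CPM in “0” rats (log2-fold change −1.73). Sik1, a kinase induced by cyclic AMP that damps its signal, had 4.82 to 8.70 CPM in “0” and 7.67 to 12.5 CPM in W rats (log2-fold change −0.79). Trib1 was the member that was no DEG (4.07 to 7.38 CPM in “0” and 6.16 to 10.9 CPM in W rats, log2-fold change −0.48, standard error 0.25, adjusted p = 0.838). The adjusted p of the 9 DEGs ran from 0.0724 for Fos to 0.500 for Nr4a2, and none was under 0.05. The count was 9 to 10 when single rats were left out and 8 without “0” 3 and “0” 4 together.

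Clock genes give each cell its daily rhythm, and 4 of the 18 listed had a symbol and were tested. All 4 were lower in “0” rats, with a median log2-fold change of −0.76 and no overlap between the strains in any of them. Among all genes with a symbol, 12.1% were lower, and in 8.27% all “0” rats lay below all W rats. Per1, a repressor of the clock that light, firing and glucocorticoids also induce, had 34.0, 34.9, 27.5 and 25.2 CPM in “0” and 51.6, 63.7, 53.1 and 87.7 CPM in W rats (log2-fold change −1.07, standard error 0.19, adjusted p = 0.110). Per2 had 12.7, 14.7, 15.6 and 18.2 CPM in “0” and 21.7, 34.6, 23.8 and 29.4 CPM in W rats (log2-fold change −0.84, standard error 0.18, adjusted p = 0.191). Dbp, an output factor of the clock, differed least (169.8 to 229 CPM in “0” and 234 to 308 CPM in W rats, log2-fold change −0.34, standard error 0.14, adjusted p = 0.679), and Ciart, another repressor, had 12.5, 11.6, 11.6 and 21.3 CPM in W against 5.74 to 11.3 CPM in “0” rats (log2-fold change −0.69, standard error 0.28, adjusted p = 0.680). Dbp was no DEG without “0” 1, “0” 2, “0” 4, W 1 or W 4 (log2-fold change −0.35 to −0.25), nor was Ciart without “0” 2, “0” 4 or W 4 (log2-fold change −0.62 to −0.43). The count fell to 2 without “0” 2, “0” 4 or W 4. The time of day at which each rat was killed is not given in the sources used here, and its part in these values was not tested.

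**Figure D4:**
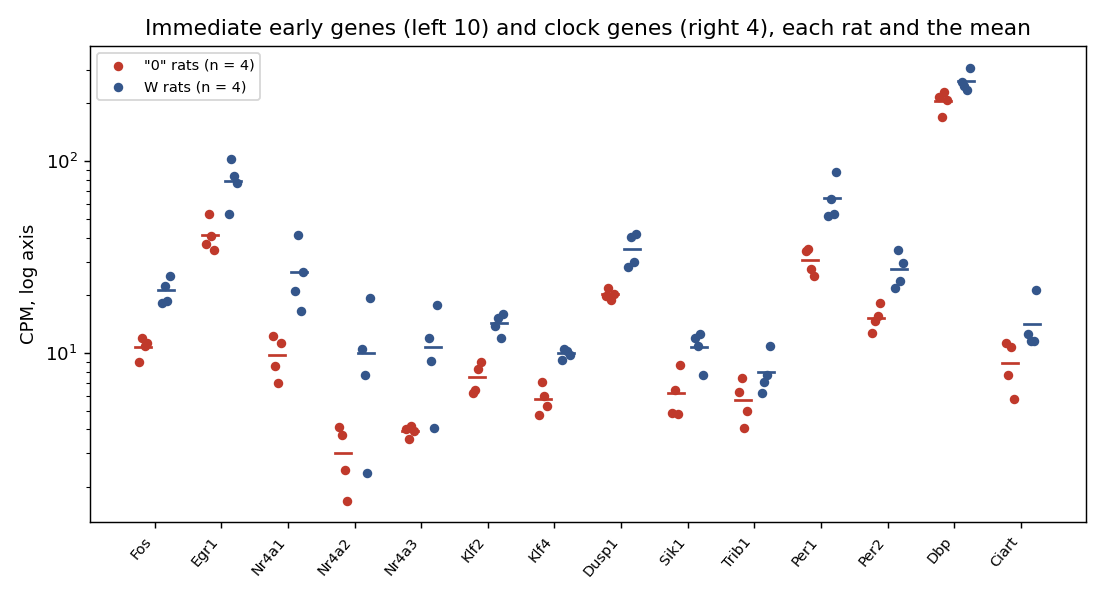
CPM of each rat (points, log axis) and strain means (bars, n = 4 each) for the 10 immediate early genes and the 4 clock genes tested. The mean of the “0” rats lies below that of the W rats in all 14 genes, and in Nr4a2 and Nr4a3 1 W rat falls to the level of the “0” rats.

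Genes that respond to glucocorticoids, the stress hormones of the adrenal gland, did not share a direction. Of 10 tested, 4 were lower and 3 higher in “0” rats (median −0.41), against 12.1% lower and 12.8% higher among all genes with a symbol. Sgk1, a kinase that regulates ion transport, had 29.5, 29.0, 19.4 and 21.4 CPM in “0” and 45.7, 97.8, 73.6 and 51.0 CPM in W rats (log2-fold change −1.43, standard error 0.25, adjusted p = 0.0998). Ddit4, an inhibitor of mTOR signaling, had 58.5, 41.2, 44.5 and 46.2 CPM in “0” and 86.7, 85.7, 75.7 and 82.9 CPM in W rats (log2-fold change −0.80, standard error 0.13, adjusted p = 0.0724). In both genes the lowest W rat stood above the highest “0” rat. Nfkbia, the inhibitor of NF-κB (16.2 to 22.6 CPM in “0” and 25.8 to 35.4 CPM in W rats, log2-fold change −0.74), and Tsc22d3, the leucine zipper GILZ (50.4 to 70.6 CPM in “0” and 77.3 to 108 CPM in W rats, log2-fold change −0.57), were lower without overlap. The metallothionein Mt2A, which binds zinc and copper, was higher (27.8 to 38.4 CPM in “0” and 15.0 to 22.9 CPM in W rats, log2-fold change 0.64), as were Mt1 (4.27 to 7.82 CPM in “0” and 3.30 to 4.69 CPM in W rats, log2-fold change 0.67) and the sulfotransferase Sult1a1 (13.6 to 19.3 CPM in “0” and 4.73 to 11.6 CPM in W rats, log2-fold change 1.24). Angptl4, Cdkn1a and Plin4 were no DEGs, with log2-fold changes of −0.43 to 0.58. Mt1 was no DEG without “0” 3 or W 3 (log2-fold change 0.57 to 0.59).

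Red blood cells carry globin mRNA and the transcripts of heme synthesis and of their membrane skeleton, and brains that were not perfused hold blood. Most genes of these cells that could be read were lower in “0” rats. The list named 17 symbols, and 12 identifiers with such a symbol were tested. Of these 12 identifiers, 10 were lower and 0 higher in “0” rats, in all 10 without overlap, and the median log2-fold change was −1.70. Among all genes with a symbol, 12.1% were lower, and in 8.27% all “0” rats lay below all W rats. The summed level of the list was 1118 to 1699 CPM in “0” and 2499 to 6553 CPM in W rats. In such a mixture fewer cells of a type and less RNA per cell cannot be told apart, and the amount of blood in the samples was not measured. Promoters of red cell genes often hold GATA sites, and the 250 bases before the start are shown for the 3 of 8 genes with an entry that hold AGATAA on either strand, in capitals (RefSeq, GRCr8, Alas2 at chrX:22895200-22895449, plus strand, Rhd at chr5:152370950-152371199, plus strand, and Lgals5 at chr10:64355138-64355387, minus strand).
Alas2: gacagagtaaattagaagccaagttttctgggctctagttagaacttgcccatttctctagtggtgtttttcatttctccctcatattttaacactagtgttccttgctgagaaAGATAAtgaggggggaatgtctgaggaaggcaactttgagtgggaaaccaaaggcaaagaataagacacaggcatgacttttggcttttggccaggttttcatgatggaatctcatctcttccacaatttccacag
Rhd: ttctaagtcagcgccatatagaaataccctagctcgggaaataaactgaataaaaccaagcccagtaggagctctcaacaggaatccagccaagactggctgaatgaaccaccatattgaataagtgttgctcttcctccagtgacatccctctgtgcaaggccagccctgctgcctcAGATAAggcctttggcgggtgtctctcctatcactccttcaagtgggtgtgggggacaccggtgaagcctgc
Lgals5: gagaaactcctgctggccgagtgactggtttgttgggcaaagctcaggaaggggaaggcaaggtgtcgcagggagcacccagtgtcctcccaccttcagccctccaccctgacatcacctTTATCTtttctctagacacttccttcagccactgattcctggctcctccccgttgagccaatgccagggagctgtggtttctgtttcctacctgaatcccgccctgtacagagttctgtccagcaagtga
Over all RefSeq rat promoters 10.3% hold these letters, and a match does not show a site.

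Hba-a2, an alpha globin, is the symbol of 2 identifiers that can share reads. ENSRNOG00000029886 had 1206, 765, 899 and 1244 CPM in “0” and 2578, 2081, 1656 and 4546 CPM in W rats (log2-fold change −1.40, standard error 0.31, adjusted p = 0.196), and ENSRNOG00000047321 had 436, 301, 328 and 310.0 CPM in “0” and 1143, 903, 741 and 1773 CPM in W rats (log2-fold change −1.73, standard error 0.26, adjusted p = 0.0520). LOC689064, annotated as beta-globin, was not on the list and was lower too, with 90.1, 27.0, 27.5 and 46.7 CPM in “0” and 134, 594, 247 and 658 CPM in W rats (log2-fold change −3.09, standard error 0.57, adjusted p = 0.111). Globins were thus lower in each “0” rat than in any W rat, and W 4 was highest in all 3. Alas2, the red cell enzyme that starts heme synthesis, had 32.7, 26.7, 25.1 and 30.8 CPM in “0” and 82.5, 63.0, 52.6 and 144 CPM in W rats (log2-fold change −1.57, standard error 0.29, adjusted p = 0.111). Slc4a1, the band 3 anion exchanger of the red cell membrane, had 4.04, 4.58, 2.79 and 4.10 CPM in “0” and 25.6, 12.5, 12.4 and 42.4 CPM in W rats (log2-fold change −2.57, standard error 0.41, adjusted p = 0.0652).

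Lgals5, a galectin of rat reticulocytes and erythrocytes, was the member with an adjusted p under 0.05, at 2.48, 2.62, 2.14 and 0.883 CPM in “0” and 18.9, 8.46, 12.7 and 17.7 CPM in W rats (log2-fold change −2.84, standard error 0.37, adjusted p = 0.0247). The blood group genes Kel (0.155 to 0.561 CPM in “0” and 1.44 to 2.80 CPM in W rats, log2-fold change −2.83) and Rhd (1.96 to 3.47 CPM in “0” and 4.38 to 6.93 CPM in W rats, log2-fold change −1.10), the chaperone of alpha globin Ahsp (0 to 1.12 CPM in “0” and 2.42 to 4.29 CPM in W rats, log2-fold change −2.40), the membrane protein Epb42 (0.429 to 0.748 CPM in “0” and 1.28 to 3.33 CPM in W rats, log2-fold change −2.07) and Tent5c (0.964 to 2.17 CPM in “0” and 4.34 to 6.94 CPM in W rats, log2-fold change −1.68) were lower as well. Klf1, the master regulator of red cell precursors (1.01 to 2.52 CPM in “0” and 1.61 to 2.65 CPM in W rats, log2-fold change −0.28), and Xk, which brain also expresses (5.80 to 10.1 CPM in “0” and 6.59 to 8.78 CPM in W rats, log2-fold change 0.06), were no DEGs. Leaving out single rats gave 9 to 10 lower members, where Kel was tested in only 7 of the fits and was a DEG in each of these. With at least 10 counts in every rat required there were 6.

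**Figure D5:**
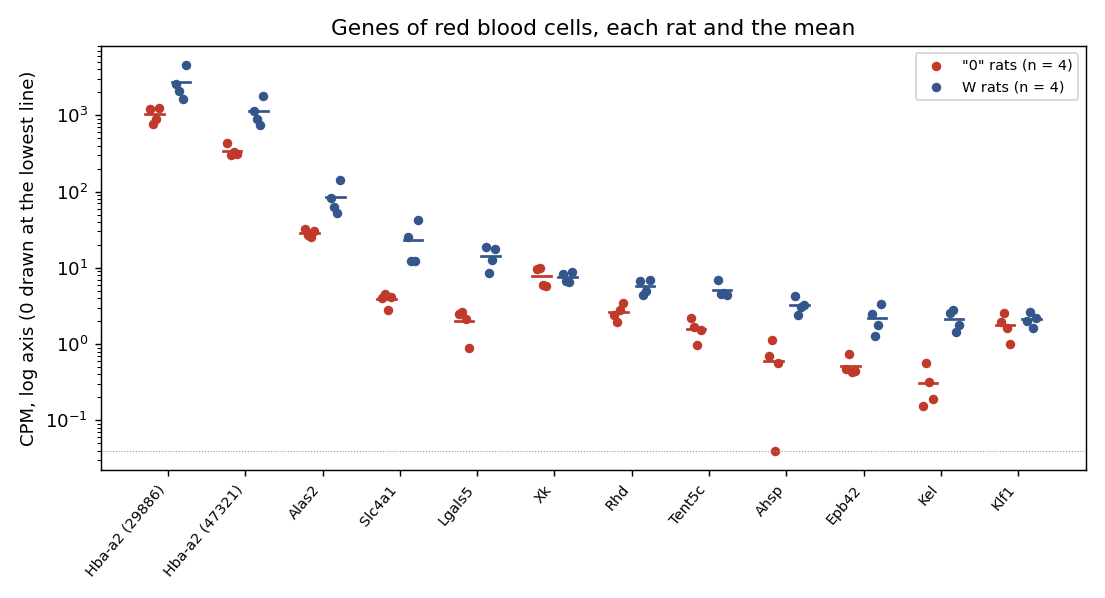
CPM of each rat (points, log axis) and strain means (bars, n = 4 each) for the 12 tested identifiers of the red blood cell list, ordered by their level in W rats, with the last digits of the identifier for Hba-a2. A value of 0 is drawn on the dotted line, and the strains overlap only in Xk and Klf1.

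Type I interferons put cells into an antiviral state by inducing a set of genes that block virus replication. Of 33 members tested, 2 were higher and 4 lower in “0” rats (median 0.03), against 12.8% and 12.1% of all genes with a symbol. Ifit1, which binds foreign RNA, had 36, 50, 77 and 0 counts in W rats and none in any “0” rat, so that the W sum was at least 54.4-fold higher over a floor of 3 counts in the 4 “0” rats (adjusted p = 0.324), though W 4 had none either. Rsad2, the antiviral enzyme viperin, had 5.20, 4.58, 4.18 and 6.75 CPM in “0” and 14.3, 8.92, 10.7 and 21.2 CPM in W rats (log2-fold change −1.40, standard error 0.29, adjusted p = 0.157). Mx2 (6.31 to 12.3 CPM in “0” and 4.68 to 33.9 CPM in W rats, log2-fold change −1.34) and Irf7, which amplifies the interferon signal (4.6 to 6.26 CPM in “0” and 4.99 to 16.7 CPM in W rats, log2-fold change −0.87), were lower, while Mx1, a relative of Mx2 (1.63 to 6.63 CPM in “0” and 0.831 to 1.87 CPM in W rats, log2-fold change 1.33) and the RNA-binding antiviral protein Zc3hav1 (10.8 to 17.1 CPM in “0” and 7.58 to 9.51 CPM in W rats, log2-fold change 0.63) were higher. The strains overlapped in Mx1, Mx2 and Irf7. Without “0” 2 the log2-fold change of Mx1 was 0.70. Mx1 was no DEG without “0” 2, W 2 or W 4 (log2-fold change 0.70 to 1.22), nor was Mx2 without “0” 3, “0” 4, W 2 or W 4 (log2-fold change −1.29 to −1.03), nor Irf7 without “0” 1, “0” 3, “0” 4 or W 3 (log2-fold change −0.84 to −0.43).

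Endothelial cells line the vessels and form the blood-brain barrier, and mural cells wrap around them. Of 7 endothelial genes tested, 5 were higher and 0 lower in “0” rats (median 0.37), where 12.8% of all genes with a symbol were higher, and their summed level was 285 to 328 CPM in “0” and 218 to 253 CPM in W rats. Egfl7, a factor that endothelial cells secrete into the vessel wall, had 26.3, 22.8, 26.6 and 39.0 CPM in “0” and 11.4, 14.1, 10.2 and 9.06 CPM in W rats (log2-fold change 1.36, standard error 0.21, adjusted p = 0.0511). The receptors for angiopoietin, Tek (34.6 to 45.9 CPM in “0” and 26.8 to 33.7 CPM in W rats, log2-fold change 0.41), and for vascular endothelial growth factor, Flt1 (log2-fold change 0.34) and Kdr (17.1 to 21.7 CPM in “0” and 13.3 to 17.9 CPM in W rats, log2-fold change 0.37), and the sialomucin Emcn (6.75 to 11.6 CPM in “0” and 6.12 to 7.12 CPM in W rats, log2-fold change 0.58) were higher by smaller amounts. Slco1c1 and Sox17 were no DEGs, with log2-fold changes of 0.15 to 0.18. Without “0” 2 or W 2 the count was 3. Flt1 was no DEG without W 2 (log2-fold change 0.29), nor was Kdr without “0” 1, “0” 2, “0” 4, W 2 or W 4 (log2-fold change 0.30 to 0.38), nor Emcn without “0” 2 (log2-fold change 0.49).

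Beside 12.8% higher among all genes with a symbol, 2 of 6 mural genes were higher and none lower. They were Kcnj8, the pore of the ATP-sensitive potassium channel of pericytes, with 16.1, 14.6, 16.1 and 14.6 CPM in “0” and 9.12, 9.98, 9.55 and 8.5 CPM in W rats (log2-fold change 0.72, standard error 0.14, adjusted p = 0.116), and its regulatory subunit Abcc9, with 26 to 40.2 CPM in “0” and 20.6 to 25.8 CPM in W rats (log2-fold change 0.53, standard error 0.16, adjusted p = 0.438). The genes of this channel lie next to each other, with no protein-coding gene between them in the RefSeq order on chromosome 4. Acta2, Des, Myl9 and Rgs5 were no DEGs, with log2-fold changes of −0.35 to 0.41. The summed level of the mural list overlapped, at 127 to 167 CPM in “0” and 97.2 to 152 CPM in W rats.

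Microglia and macrophages are the resident immune cells of the brain and its borders. Of 9 such genes, 3 were higher and 1, Slc11a1, lower in “0” rats (median 0.16), against 12.8% higher and 12.1% lower among all genes with a symbol. Cd14, a receptor subunit for bacterial lipopolysaccharide, had 5.36, 3.83, 6.0 and 5.11 CPM in “0” and 1.95, 2.04, 2.79 and 2.50 CPM in W rats (log2-fold change 1.13, standard error 0.23, adjusted p = 0.157). Gpnmb, a glycoprotein of phagocytes handling lipid (14 to 18.4 CPM in “0” and 7.25 to 10.8 CPM in W rats, log2-fold change 0.88, standard error 0.18, adjusted p = 0.157), and the lysosomal protease Ctss (169.8 to 235 CPM in “0” and 119.9 to 147 CPM in W rats, log2-fold change 0.63, standard error 0.14, adjusted p = 0.224) were also higher without overlap. C1qc, Lyz2, Ptprc, Spp1 and Tmem119 were no DEGs, with log2-fold changes of −0.32 to 0.56. The summed level of the list was 315 to 415 CPM in “0” and 237 to 366 CPM in W rats and overlapped. These 3 genes stayed DEGs without any single rat and without “0” 3 and “0” 4 together.

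Markers of the neural cells showed no common direction. Their counts stand beside 12.8% higher and 12.1% lower among all genes with a symbol. Of 6 astrocyte genes, Gfap, an intermediate filament that rises in reactive astrocytes, was higher (1596, 1253, 1824 and 2241 CPM in “0” and 959, 1013, 1025 and 1322 CPM in W rats, log2-fold change 0.68, standard error 0.19, adjusted p = 0.404), with “0” 2 below W 4. The gap junction protein Gja1 (128 to 206 CPM in “0” and 195 to 257 CPM in W rats, log2-fold change −0.57) and the calcium-binding protein S100b (639 to 1008 CPM in “0” and 981 to 1604 CPM in W rats, log2-fold change −0.52) were lower. Aldh1l1, Fabp7 and Gjb6 were no DEGs, with log2-fold changes of −0.03 to 0.37. Among 7 oligodendrocyte genes, Ugt8 (67.3 to 105.2 CPM in “0” and 103 to 162 CPM in W rats, log2-fold change −0.68) and Fa2h (47.7 to 73.2 CPM in “0” and 64.3 to 112 CPM in W rats, log2-fold change −0.50), enzymes of the myelin lipids, were lower and none was higher. Anln, Ermn, Hapln2 and Klk6 were no DEGs, with log2-fold changes of 0.17 to 0.70. Gpr17, a receptor of cells about to become oligodendrocytes, was lower (8.39 to 12.7 CPM in “0” and 14 to 20.4 CPM in W rats, log2-fold change −0.66, standard error 0.20, adjusted p = 0.456) and Bcas1, found in early myelinating cells, higher (482 to 786 CPM in “0” and 301 to 569 CPM in W rats, log2-fold change 0.54, standard error 0.22, adjusted p = 0.697) among 4 genes of precursors. Enpp6 and Nkx2-2 were no DEGs, with log2-fold changes of 0.27 to 0.36. Without “0” 3 and “0” 4, none of the higher genes of these 3 lists remained a DEG. S100b was no DEG without “0” 3 or W 1 (log2-fold change −0.40 to −0.36), nor was Fa2h without “0” 1, “0” 2, W 1 or W 3 (log2-fold change −0.48 to −0.35), nor Bcas1 without “0” 2, “0” 3, W 1, W 2 or W 4 (log2-fold change 0.38 to 0.57).

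Few neuronal markers had a symbol. Of 2 markers of neurons in general 1 was lower in “0” rats and 1 was no DEG (median −0.33), where 12.1% of all genes with a symbol were lower. Syn2, a protein of synaptic vesicles, was lower (150.3, 161, 151 and 115 CPM against 191, 188, 168 and 186 CPM, log2-fold change −0.34, standard error 0.13, adjusted p = 0.640), and Syn1, another of that family, had 306 to 574 CPM in “0” and 496 to 593 CPM in W rats (log2-fold change −0.31, standard error 0.18, adjusted p = 0.885). Nrgn, a postsynaptic calmodulin-binding protein, had 276, 432, 279 and 493 CPM in “0” and 577, 757, 522 and 460.4 CPM in W rats (log2-fold change −0.65, standard error 0.23, adjusted p = 0.609), with “0” 4 inside the W range. Nrgn was the only glutamatergic marker with a symbol. The glycinergic and cholinergic lists and that of the midbrain tectum kept 1 gene each, none of them a DEG, and of 2 dopaminergic genes Nr4a2 was lower. No gene of the lists for forebrain, cerebellum, pineal gland, serotonergic neurons or the mitochondrial genome had a symbol. The identity of the tissue could not be checked further for that reason. Syn2 was no DEG without “0” 4, W 1 or W 2 (log2-fold change −0.33 to −0.24), nor was Nrgn without “0” 1, “0” 3 or W 2 (log2-fold change −0.52 to −0.49).

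Tissue bordering the ventricles, together with the meninges, gave 3 short lists. The choroid plexus, which makes cerebrospinal fluid, was represented by 10 genes, 2 lower, 1 higher and 7 without a call (median −0.13). The counts of these lists stand beside 12.8% higher and 12.1% lower among all genes with a symbol. Ttr, the thyroxine carrier and the plexus' most abundant transcript, had 1.09, 1.31, 0.643 and 0.126 CPM in “0” and 2.34, 5.59, 43.7 and 2.77 CPM in W rats (log2-fold change −4.13, standard error 1.08, adjusted p = 0.326). W 3 stood far above all other rats, and without it the log2-fold change was −2.20 and the strains still did not overlap. Aqp1, a water channel of the plexus and also of red cells, had 1.40, 2.06, 0.429 and 1.01 CPM in “0” and 7.09, 3.70, 3.13 and 11.8 CPM in W rats (log2-fold change −2.37, standard error 0.52, adjusted p = 0.196). Mfrp was higher (4.97 to 15.8 CPM in “0” and 4.52 to 7.35 CPM in W rats, log2-fold change 1.07). Clic6, Col8a2, Folr1, Kcne2, Kl, Slc4a5 and Tmem72 were no DEGs, with log2-fold changes of −0.94 to 0.60. Of 6 ependymal genes of cilia, Cfap77 (1.89 to 2.99 CPM in “0” and 3.33 to 6.84 CPM in W rats, log2-fold change −0.96) and Ccdc65 (12.7 to 19.6 CPM in “0” and 18 to 24.1 CPM in W rats, log2-fold change −0.46) were lower and Dnah11 higher (13.1 to 25.1 CPM in “0” and 9.82 to 14.9 CPM in W rats, log2-fold change 0.65). Cfap69, Daw1 and Hydin were no DEGs, with log2-fold changes of −0.67 to −0.22. Prelp, a matrix protein, was the lower of 4 genes of meninges (13.2 to 26.2 CPM in “0” and 28.5 to 44.0 CPM in W rats, log2-fold change −0.88). Fmod, Slc13a3 and Slc22a6 were no DEGs, with log2-fold changes of −0.86 to −0.19. The part of the dissection in these values was not tested. Ccdc65 was no DEG without “0” 1, “0” 4, W 1, W 2 or W 3 (log2-fold change −0.44 to −0.35), nor was Dnah11 without W 1 (log2-fold change 0.53).

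The MAP kinase cascade carries signals from growth factor and cytokine receptors to the nucleus. Of 43 members of a hand-written list, 11 were higher and 3 lower in “0” rats (median 0.13), against 12.8% higher and 12.1% lower among all genes with a symbol. Among the receptors and ligands, Ngfr, the low-affinity neurotrophin receptor, had 13.1, 12.8, 11.7 and 13.9 CPM in “0” and 6.78, 5.37, 8.53 and 7.02 CPM in W rats (log2-fold change 0.90, standard error 0.18, adjusted p = 0.144), and Tgfa, a ligand of the EGF receptor, had 44.1, 50.4, 62.9 and 52.9 CPM in “0” and 34.4, 25.7, 42.6 and 24.7 CPM in W rats (log2-fold change 0.72, standard error 0.19, adjusted p = 0.352). Neither gene overlapped between the strains. Fgfr2 (141 to 183 CPM in “0” and 99.7 to 141 CPM in W rats, log2-fold change 0.42) and Tgfbr2 (14.1 to 19.4 CPM in “0” and 8.99 to 15.8 CPM in W rats, log2-fold change 0.52), together with Tek, Flt1, Kdr and Cd14 above, were the other higher receptors, and 3 of these mark endothelium and 1 microglia.

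Downstream of the receptors, Rasgrp3, an exchange factor that loads Ras with GTP (29.3, 32.1, 28.5 and 30.6 CPM in “0” and 23.2, 14.1, 23.1 and 19.2 CPM in W rats, log2-fold change 0.60, standard error 0.17, adjusted p = 0.399), the scaffold filamin Flnc (32.5 to 41.7 CPM in “0” and 21.4 to 30.9 CPM in W rats, log2-fold change 0.61, standard error 0.15, adjusted p = 0.278) and the kinase Mapkapk2, a target of p38 (72.3 to 94.7 CPM in “0” and 61.8 to 71.1 CPM in W rats, log2-fold change 0.30, standard error 0.12, adjusted p = 0.682), were higher without overlap. The lower members were Rras2, a small GTPase (9.24 to 11.2 CPM in “0” and 12.1 to 16.6 CPM in W rats, log2-fold change −0.42, standard error 0.16, adjusted p = 0.656), and the immediate early genes Fos and Dusp1. Leaving out single rats gave 7 to 11 higher and 2 to 5 lower members. Tgfbr2 was no DEG without “0” 2, W 1 or W 2 (log2-fold change 0.40 to 0.48), nor was Mapkapk2 without “0” 3, “0” 4, W 1, W 2 or W 4 (log2-fold change 0.23 to 0.31), nor Rras2 without “0” 1, “0” 4 or W 1 (log2-fold change −0.37 to −0.30). Of 9 other genes that the study discusses, Cd14, Rasgrp3 and Tgfbr2 were higher. Igfbp5, a binding protein of insulin-like growth factors, was lower in “0” rats (181, 161, 107 and 86.3 CPM against 204, 191, 205 and 255 CPM, log2-fold change −0.68, standard error 0.23, adjusted p = 0.550). Atf4, Gadd45b, Gadd45g, Gstm1 and Rasgrp2 were no DEGs, with log2-fold changes of −0.29 to 0.39.

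Among 11 genes of fatty acid oxidation, 3 were higher and none lower in “0” rats (median 0.19). Over all genes with a symbol, 12.8% were higher and 12.1% lower, and the lists that follow are to be read beside these shares. Acsm5, a mitochondrial enzyme that activates medium-chain fatty acids, had 16.1, 28.1, 30.0 and 36.4 CPM in “0” and 14, 11, 1.52 and 13.0 CPM in W rats (log2-fold change 1.49, standard error 0.51, adjusted p = 0.579), and W 3 was lowest by far. Ucp3, a mitochondrial uncoupling protein, had 1.63, 1.96, 1.71 and 1.70 CPM in “0” and 0.312, 0, 1.18 and 0.0924 CPM in W rats (log2-fold change 2.13, standard error 0.71, adjusted p = 0.550). Its log2-fold change was 3.60 without W 3. Acadm, which takes the first step of medium-chain oxidation, was higher by less (33.4 to 40.1 CPM in “0” and 26 to 34.0 CPM in W rats, log2-fold change 0.30, standard error 0.13, adjusted p = 0.728). Acot11, Acsl1, Cpt1a, Crat, Crot, Decr1 and Etfdh were no DEGs, with log2-fold changes of −0.27 to 0.21. Of 7 chaperone and endoplasmic reticulum stress genes, 3 were higher. They were the neurotrophic factor Cdnf (2.25, 1.21, 2.14 and 1.77 CPM in “0” and 0.390, 0.302, 0.676 and 0.462 CPM in W rats, log2-fold change 2.0, standard error 0.35, adjusted p = 0.0980), the small heat shock protein Cryab (103 to 165 CPM in “0” and 56.0 to 98.9 CPM in W rats, log2-fold change 0.68, standard error 0.20, adjusted p = 0.457) and Sel1l of the degradation pathway (159 to 191 CPM in “0” and 139 to 151 CPM in W rats, log2-fold change 0.29, standard error 0.11, adjusted p = 0.633). Without “0” 3 and “0” 4, Cryab and Sel1l were no DEGs, and Cdnf fell below a mean of 1 CPM and was not tested. Atf4, Calr, Derl2 and Serp2 were no DEGs, with log2-fold changes of −0.41 to 0.13. Among 11 genes of glutathione and conjugation, Sult1a1 was higher and Ugt8 and glutathione reductase, Gsr (14.1 to 19.7 CPM in “0” and 19.1 to 26.5 CPM in W rats, log2-fold change −0.39, standard error 0.15, adjusted p = 0.663), lower. Cat, Gpx3, Gpx7, Gstm1, Gsto2, Prdx6, Slc7a11 and Txn1 were no DEGs, with log2-fold changes of −0.41 to 0.48. No gene of cholesterol biosynthesis was a DEG among 5 tested. Fdft1, Fdps, Msmo1, Mvd and Nsdhl were no DEGs, with log2-fold changes of −0.41 to −0.16. Acadm was no DEG without “0” 1, “0” 2, “0” 4, W 2, W 3 or W 4 (log2-fold change 0.22 to 0.33), nor was Sel1l without “0” 2, W 1 or W 2 (log2-fold change 0.25 to 0.28), nor Gsr without “0” 3, W 1, W 2 or W 3 (log2-fold change −0.39 to −0.30).

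Of 16 DNA repair genes, 3 were higher and none lower in “0” rats (median 0.13). Among all genes with a symbol, 12.8% were higher and 12.1% lower, which holds for the other lists here too. Mgmt, which removes alkyl groups from guanine, had 12.2, 11.1, 16.8 and 16.2 CPM in “0” and 9.67, 4.99, 5.15 and 7.12 CPM in W rats (log2-fold change 1.06, standard error 0.25, adjusted p = 0.240). The checkpoint kinase Chek1 (37.7 to 54.3 CPM in “0” and 30.0 to 38.4 CPM in W rats, log2-fold change 0.39) and Fance of the Fanconi complex (15.3 to 38.8 CPM in “0” and 13.9 to 17.1 CPM in W rats, log2-fold change 0.66) overlapped between the strains. Tdg was the next by p and no DEG (log2-fold change −0.46). Among 25 cytosolic ribosomal proteins only Rpl30 and Rps4y2 (5.36 to 6.12 CPM in “0” and 2.19 to 5.32 CPM in W rats, log2-fold change 0.61) were DEGs, both higher, while the median of the list was −0.16 and its summed level ran from 2968 CPM in the lowest to 5910.4 CPM in the highest “0” rat, a wider range than the 4638 to 5578 CPM of W rats. The next by p, Rpl36 and Rpl6, were no DEGs (log2-fold changes −0.70 to −0.25). Of 10 nuclear genes of oxidative phosphorylation, Cox4i2 was higher (8.70 to 12.2 CPM in “0” and 5.59 to 8.45 CPM in W rats, log2-fold change 0.52) and Cox7a2l2 lower (10.3 to 25 CPM in “0” and 28.7 to 34.8 CPM in W rats, log2-fold change −0.67), and the list held 6 lower DEGs without “0” 3 and 0 without W 1. Atp5mc2, Atp5pf, Ndufa11, Ndufa12, Ndufa4, Ndufb10, Ndufb8 and Ndufv2 were no DEGs, with log2-fold changes of −0.47 to −0.18. Among 9 proteins of the mitochondrial ribosome, Mrps7 (25.7 to 33.5 CPM in “0” and 31.3 to 42.2 CPM in W rats, log2-fold change −0.46), Mrpl50 (log2-fold change −0.45) and Mrpl22 (log2-fold change −0.33) were lower. Mrpl20, Mrpl42, Mrpl43, Mrps11, Mrps15 and Mrps9 were no DEGs, with log2-fold changes of −0.25 to 0.14. Chek1 was no DEG without “0” 2, W 3 or W 4 (log2-fold change 0.28 to 0.35), nor was Fance without “0” 4, W 1, W 2 or W 4 (log2-fold change 0.34 to 0.66), nor Rps4y2 without “0” 1, “0” 2, “0” 3, “0” 4, W 1 or W 2 (log2-fold change 0.42 to 0.65), nor Cox4i2 without “0” 3, “0” 4, W 1 or W 2 (log2-fold change 0.42 to 0.49), nor Cox7a2l2 without W 1 (log2-fold change −0.63), nor Mrpl50 without “0” 2, “0” 4, W 1 or W 3 (log2-fold change −0.42 to −0.31), nor Mrpl22 without “0” 1, “0” 2, “0” 4, W 1, W 2 or W 3 (log2-fold change −0.33 to −0.25).

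Quantitative PCR had been run on 6 of the genes, and of these Acsm5 and Ttr were DEGs between “0” and W rats in the counts. Msh3, which recognizes mismatched loops in DNA, had 12, 10.8, 10.7 and 8.32 CPM in “0” and 9.74, 10.1, 8.70 and 11.5 CPM in W rats (log2-fold change 0.06, standard error 0.17, adjusted p = 0.992). The potassium channel subunits Kcne5 (4.50 to 7.06 CPM in “0” and 3.23 to 6.93 CPM in W rats, log2-fold change 0.38, standard error 0.27, adjusted p = 0.925) and Kcne2 (1.07 to 1.86 CPM in “0” and 1.35 to 1.95 CPM in W rats, log2-fold change −0.07, standard error 0.28, adjusted p = 0.997) and Cacng4, an auxiliary subunit of calcium channels and AMPA receptors (103 to 150.0 CPM in “0” and 112 to 124 CPM in W rats, log2-fold change 0.01, standard error 0.14, adjusted p = 0.999), overlapped. For these 4 genes no difference could be detected with 4 rats in each strain.

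Ion channels and receptors set the excitability of the colliculi. Of 16 ion channel genes, taken by symbol from the families of voltage-gated sodium, potassium and calcium channels together with their auxiliary subunits and other potassium channels, 2 were higher and none lower (median −0.10), namely Kcnj8, an inward rectifier and not voltage-gated, and Scn4a, the voltage-gated sodium channel best known from skeletal muscle (3.42, 5.61, 6.64 and 5.49 CPM in “0” and 2.57, 2.34, 2.87 and 2.13 CPM in W rats, log2-fold change 1.08, standard error 0.25, adjusted p = 0.229). Among all genes with a symbol, 12.8% were higher. The next channel genes by p, Cacnb3 and Kcnj14, were no DEGs (log2-fold changes −0.46 to 0.45). Among 14 transmitter receptors only Chrm1, a muscarinic acetylcholine receptor, was a DEG, with 2.56, 3.92, 4.07 and 5.61 CPM in “0” and 16.8, 25.1, 3.46 and 6.56 CPM in W rats (log2-fold change −1.68, standard error 0.54, adjusted p = 0.522). It was high in W 1 and W 2, while W 3 lay within the “0” range. The next by p, Drd5, Htr3a and Npy1r, were no DEGs (log2-fold changes −0.57 to 0.97).

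Clustered protocadherins differed in both directions. Besides the lower Pcdha4 identifiers, Pcdhga10 was lower (8.04 to 8.85 CPM in “0” and 10.1 to 15.3 CPM in W rats, log2-fold change −0.47), and Pcdhgb6 (8.77, 11.7, 12 and 10.2 CPM in “0” and 3.43, 5.14, 6.42 and 8.59 CPM in W rats, log2-fold change 0.86, standard error 0.27, adjusted p = 0.481) and Pcdhga4 (8.46 to 9.02 CPM in “0” and 5.74 to 8.11 CPM in W rats, log2-fold change 0.41) were higher, of 6 tested. Within the alpha cluster and within the gamma cluster the genes share their last exons, so reads there cannot be assigned to one of them. Pcdhb4 was no DEG (log2-fold change 0.48). Of 38 solute carriers, 7 were higher and 5 lower, against 12.8% higher and 12.1% lower among all genes with a symbol. The higher ones included Slc12a2, the chloride importer NKCC1, with 268, 359, 281 and 259 CPM in “0” and 225, 155, 204 and 195 CPM in W rats (log2-fold change 0.58, standard error 0.15, adjusted p = 0.344), the citrate transporter Slc13a5 (16.8 to 40.0 CPM in “0” and 12.4 to 20.3 CPM in W rats, log2-fold change 0.78, standard error 0.26, adjusted p = 0.540), the peptide transporter Slc15a3 (4.23 to 4.82 CPM in “0” and 1.94 to 2.80 CPM in W rats, log2-fold change 0.88), the taurine transporter Slc6a6 (20.7 to 39.2 CPM in “0” and 16.8 to 22.7 CPM in W rats, log2-fold change 0.47), the iron exporter Slc40a1 (3.0 to 3.59 CPM in “0” and 1.36 to 2.96 CPM in W rats, log2-fold change 0.70), the fatty acid transporter Slc27a1 (log2-fold change 0.44) and the mitochondrial carrier Slc25a45 (log2-fold change 0.97). Besides Slc11a1 and Slc4a1, the amino acid transporter Slc38a5 (5.36 to 7.71 CPM in “0” and 8.46 to 11.2 CPM in W rats, log2-fold change −0.65), the nucleoside transporter Slc29a3 (log2-fold change −0.60) and the cation transporter Slc22a3 (log2-fold change −0.92) were lower. Of 26 zinc finger genes, 1 was higher, Zfp488, and 2 lower, Zfp771 (log2-fold change −0.32) and Zfp707 (log2-fold change −0.83). Zfp810 was the next by p and no DEG (log2-fold change −0.44). Pcdhga10 was no DEG without “0” 2 or W 4 (log2-fold change −0.44 to −0.32), nor was Pcdhga4 without “0” 1, “0” 2, “0” 4, W 1, W 2 or W 4 (log2-fold change 0.35 to 0.43), nor Slc6a6 without “0” 2, “0” 4, W 1 or W 2 (log2-fold change 0.27 to 0.50), nor Slc40a1 without “0” 2, W 1, W 2 or W 3 (log2-fold change 0.55 to 0.69), nor Slc27a1 without “0” 3, “0” 4 or W 1 (log2-fold change 0.32 to 0.41), nor Slc22a3 without “0” 1 or W 2 (log2-fold change −0.79 to −0.69), nor Zfp771 without “0” 1, “0” 2 or W 1 (log2-fold change −0.30 to −0.26), nor Zfp707 without “0” 2, “0” 4 or W 4 (log2-fold change −0.76 to −0.60).

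Outside the lists, the named DEGs without overlap and with the smallest p included further genes that were higher in “0” rats. Naa50, an enzyme that acetylates the ends of new proteins, had 8.39, 9.81, 7.29 and 8.89 CPM in “0” and 4.68, 4.01, 3.89 and 3.42 CPM in W rats (log2-fold change 1.10, standard error 0.19, adjusted p = 0.0788). Jhy, needed for ciliated ependyma and for normal cerebrospinal fluid spaces, had 8.31, 12.1, 18.1 and 8.07 CPM in “0” and 3.27, 3.40, 4.39 and 2.68 CPM in W rats (log2-fold change 1.75, standard error 0.30, adjusted p = 0.0791). Nbl1, a secreted antagonist of bone morphogenetic proteins (128 to 161 CPM in “0” and 94.7 to 104 CPM in W rats, log2-fold change 0.59, standard error 0.12, adjusted p = 0.143), and Tmem44, a membrane protein (26.8 to 31.3 CPM in “0” and 16.8 to 19.9 CPM in W rats, log2-fold change 0.65, standard error 0.12, adjusted p = 0.111), differed by less but with little spread in either strain. Among those with the largest folds, Oca2, whose product sets the pH of melanosomes and whose loss gives pink-eyed dilution, had 2.87, 2.24, 3.86 and 2.33 CPM in “0” and 0.468, 0.453, 1.44 and 0.0924 CPM in W rats (log2-fold change 2.17, standard error 0.53, adjusted p = 0.279, log2-fold change 2.98 without W 3).

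Fam111a, a protease that restricts viruses and protects replication forks, had 3.88, 6.54, 5.36 and 4.23 CPM in “0” and 0.156, 0.151, 2.37 and 0.554 CPM in W rats (log2-fold change 2.63, standard error 0.67, adjusted p = 0.317, log2-fold change 4.13 without W 3). In both Oca2 and Fam111a, W 3 was the W rat nearest to the “0” rats. In the other direction, Fcrl2, an Fc receptor-like gene of lymphocytes, had 0.311, 0.0934, 0.107 and 0.126 CPM in “0” and 4.05, 2.65, 1.44 and 0.924 CPM in W rats (log2-fold change −3.72, standard error 0.60, adjusted p = 0.0724). The “0” values of this gene stood at 1 to 4 counts per rat, at the limit of what the depth can show.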

How the data were processed

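Per the labels and the methods of the study, polyadenylated RNA of the colliculi of single rats was made into strand-specific libraries and read from one end. The authors trimmed reads with Trimmomatic, aligned them to Rnor_6.0 with STAR and assigned them to genes with HTSeq-count, with versions and the strand setting not given in the sources used here, and deposited raw counts per gene. Rows that name no gene stayed out of library sizes and tests, and held 16.5% to 22.7% of reads outside genes and 1.44% to 2.36% ambiguous reads. Of the 11 libraries, the 3 of KM rats were not used. Groups came from the labels. Library sizes were 10545964 to 13623132 counts, which makes 3 counts 0.189 to 0.321 CPM. No library pair looked like one library deposited again, since the chi-square per degree of freedom of counts between replicates was 19.2 to 211.

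Counts were scaled by TMM factors (0.838 to 1.17), genes with a mean of at least 1 CPM over the 8 rats were kept, and the QLF test of edgeR 4.0.16 (R 4.3.3, limma 3.58.1) in its original form compared the strains without covariates. Positive log2-fold changes are higher in “0” rats. Adjusted p-values are Benjamini-Hochberg values over 13630 genes, and DEGs have an unadjusted p under 0.05. Pandas 2.3.3, SciPy 1.17.1 and matplotlib 3.10.9 served for tables, exact tests and plots. The test was tried on simulated data. Symbols came from the identifiers paired in the study's gene table (no values were used), the RefSeq table matched 0 of the Ensembl identifiers, and RefSeq promoters on GRCr8 were matched by symbol. Coordinates are those of GRCr8, not of Rnor_6.0.

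Genes were named when their adjusted p was under 0.05 (all with a symbol, and up to 2 higher and 2 lower without), when they were among 12 in each direction with the smallest p or 6 with the largest fold without overlap, when they were measured by quantitative PCR, and, in the gene lists, when they were among the 4 smallest p or in lists of at most 12. Further DEGs of the lists and LOC689064 were named after their values were seen. Members and lists were chosen with earlier results of these data known. The protease genes Htra1, Htra3 and Htra4 were kept out of the serotonin receptors. Alternatives were other normalizations, filters and tests (DESeq2 1.42.0 among them), the replicate number as a block, and leaving out rats. Some genes are not reported here.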

Additional observations from a re-analysis of the deposited data

Results flagged for a closer look

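In 11 of 283 groups of 4 rats examined for the named genes, 1 rat lay farther from the other 3 than Dixon's 95% limit allows, and chance alone gives about 1 in 20 groups. Among the “0” rats, Pcdha4 (ENSRNOG00000047174) was low in “0” 3 at 0.321 CPM against 0.841 to 0.883 CPM. Fcrl2 was high in “0” 1 at 0.311 CPM against 0.0934 to 0.126 CPM, and Epb42 in “0” 2 at 0.748 CPM against 0.429 to 0.466 CPM. Irf7 reached 6.26 CPM in “0” 2 against 4.6 to 4.81 CPM.

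Among the W rats, W 3 held 43.7 CPM of Ttr against 2.34 to 5.59 CPM in the others. W 1 was highest for Tent5c (6.94 CPM against 4.34 to 4.65 CPM), Zfp771 (42.2 CPM against 40.2 to 40.4 CPM) and Rras2 (16.6 CPM against 12.1 to 12.8 CPM). W 4 was highest for Pcdha4 (ENSRNOG00000050378, 4.81 CPM against 2.57 to 2.80 CPM), Zfp707 (8.69 CPM against 5.14 to 5.75 CPM) and Ciart (21.3 CPM against 11.6 to 12.5 CPM). The causes were not tested.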

How the results depend on the processing

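Between 804 genes with the replicate number as a block and 1189 genes without a filter had an unadjusted p under 0.05, beside 912, and leaving out single rats gave 612 to 1017. With a change of more than 1.5-fold required as well, 467 genes remained. The count with an adjusted p under 0.05 depended on the method. It was 15 in the QLF test, 119 in the DESeq2 Wald test (all 15 among them), 28 without a filter and 2 with at least 10 counts in every rat, where genes absent in a strain drop out. It was 1 to 20 without single rats. The QLF test with the replicate block gave 0 such genes (804 with an unadjusted p under 0.05), and so did the QLF test without “0” 3 and “0” 4, an alternative chosen after seeing the data (824). Rats with the same number did not deviate together (correlations of −0.58 to 0.52, and 1 of 4 numbers fitted best with itself), so the numbers were not taken to pair them. The block ended the call of 15 of 132 named DEGs. Genes without overlap numbered 825 to 1203 with 7 rats, where fewer values have to be apart.

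Endothelial genes called higher were 3 to 5 and clock genes called lower 2 to 4 without single rats, and red cell genes called lower were 6 with at least 10 counts in every rat, where low genes leave the test. Of 132 named DEGs, 82 stayed under 0.05 in every alternative in which they were tested, and none changed sign. Some of the 132 left the test in single alternatives, mostly through a filter, and such cases were not counted as lost. Of 99 named genes that were no DEGs, 23 changed sign in at least 1 alternative. Without “0” 3 and “0” 4 the log2-fold change was 0.065 for Klf1, 0.0058 for Kcne2 and −0.15 for Cacng4. With the replicate block it was −0.0065 for Cacng4. Without single rats it ran from −0.00039 to 0.17 for Msh3, −0.078 to 0.198 for Xk, −0.15 to 0.069 for Kcne2, and −0.12 to 0.080 for Cacng4. Over all alternatives it ran from −0.15 to 0.41 for Acot11, −0.29 to 0.06 for Acta2, −0.23 to 0.12 for Aldh1l1, −0.06 to 0.10 for Calr, −0.38 to 0.27 for Clic6, −0.40 to 0.06 for Col8a2, −0.47 to 0.09 for Folr1, −0.09 to 0.06 for Gjb6, −0.08 to 0.999 for Hapln2, −0.34 to 0.09 for Kl, −0.09 to 0.41 for Klk6, −0.70 to 0.04 for Lyz2, −0.53 to 0.18 for Mrpl42, −0.12 to 1.27 for RT1-Bb, −0.41 to 0.30 for Rasgrp2, −0.15 to 0.16 for Slc7a11, −0.11 to 0.60 for Spp1, and −0.12 to 0.29 for Tmem119. Of 1020 other counts over the lists, 931 stayed within 1.5 times. The causes of these changes were not tested. With 4 rats a strain, exact tests of single values cannot go below p = 0.0286, and fewer than 3 counts in a rat were not taken as seen.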
